A study of Homo sapiens with 2 samples.

Results

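The genes of 10 transcription factors of the myeloid lineage were followed in a leukaemia cell line and in its cytarabine-resistant derivative. They were taken by name, without regard to their values, as every row called SPI1, CEBPA, CEBPB, CEBPD, CEBPE, GFI1, RUNX1, MYB, KLF4 or GATA2 in the signal file of each array and in the authors' normalized table. All 10 names were found, with 15 probes in all, among 43270 genes and transcripts on the array. The parental group was HL60, an untreated human acute myeloid leukaemia line of promyelocytic character. The other group was R-HL60, derived from HL60 by continuous exposure to rising concentrations of cytarabine, a deoxycytidine analogue that blocks DNA synthesis. Each line was measured on 1 Agilent one-colour array of Cy3-labelled RNA. R-HL60 is a single derived line, its label does not say if the drug was present at harvest, and no difference below has a replicate check, a standard error or a test.

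Blood cells acquire their identity from a small set of factors that act on each other's genes. PU.1, encoded by SPI1, and C/EBP-alpha, encoded by CEBPA, commit progenitors to the myeloid branch. C/EBP-epsilon and the repressor GFI1 then carry granulocytes through maturation, while KLF4 favours monocytes. RUNX1, MYB and GATA2 act earlier, in stem and progenitor cells, and GATA2 also serves mast cells, basophils and eosinophils.

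The median signal was 30.7 on the HL60 and 32.8 on the R-HL60 array, and the 75th percentile was 292 and 294. Differences are given as log2 of R-HL60 over HL60, after each array was set relative to its own 75th percentile. The array's median served as the floor below which a signal was not read, and 23531 genes lay above it on at least 1 array. Their median difference was -0.03. The only repeated measurement was that of several probes for 1 gene, whose differences varied with an SD of 0.29 at the least precise and 0.10 at the most precise of 10 levels of brightness. This SD covers neither cultures nor arrays. Of 8 genes chosen as marks of promyelocytic leukaemia cells 7 were found by name on the array, and all 7 were above the floor on both arrays. CEBPE, 1 of the 10 factors, was among them. Their summed signal was 812136 in HL60 and 722652 in R-HL60, most of it from MPO and CTSG, while ELANE went from 699.7 to 153. Of the genes chosen for other cell types, PAX5, CD3G, PPBP, COL1A1 and EPCAM were below the floor on both. Others were above it on both, among them all 4 for monocytes and all 4 erythroid genes found by name on the array. The counts were 4 of 5 for T cells, 4 of 5 for B cells and 3 of 5 for epithelium. They were 2 of 4 for megakaryocytes, 2 of 4 for eosinophils and 1 of 3 for natural killer cells, against 0 of 4 for fibroblasts.

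None of the 10 factors differed by 2-fold. All 10 lay above the floor on both arrays, and their differences ran from -0.82 for GATA2 to 0.58 for KLF4, with 7 below and 3 above 0, where 55.8% of all 23531 genes lay below and 43.3% above 0. The median was -0.08, and the median size regardless of direction was 0.16, against 0.14 over all 23531 genes. That comparison does not match brightness. Of the 10 factors, 8 read at least 2000 on both arrays. The median difference of genes at their brightness was -0.06 to -0.07, below the -0.03 of all genes. Of the genes as bright as CEBPE, 29.3% differed by 0.13 or more. Among all 23531 genes, 0.786% reached 2-fold higher and 0.297% reached 2-fold lower in R-HL60, together 1.08%. These shares came to 185 and 70 genes, or to 129 and 91 when each array was centred on its median instead. GATA2, KLF4 and CEBPA differed by at least 1.2-fold and the other 7 by less, where 24% of all genes reached that size in either direction. GATA2, CEBPA, CEBPB and KLF4 differed from 0 by more than 2 of the probe-to-probe SDs of their brightness, which 12.1% of the 21839 genes above the floor on both arrays did.

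**Figure D1:**
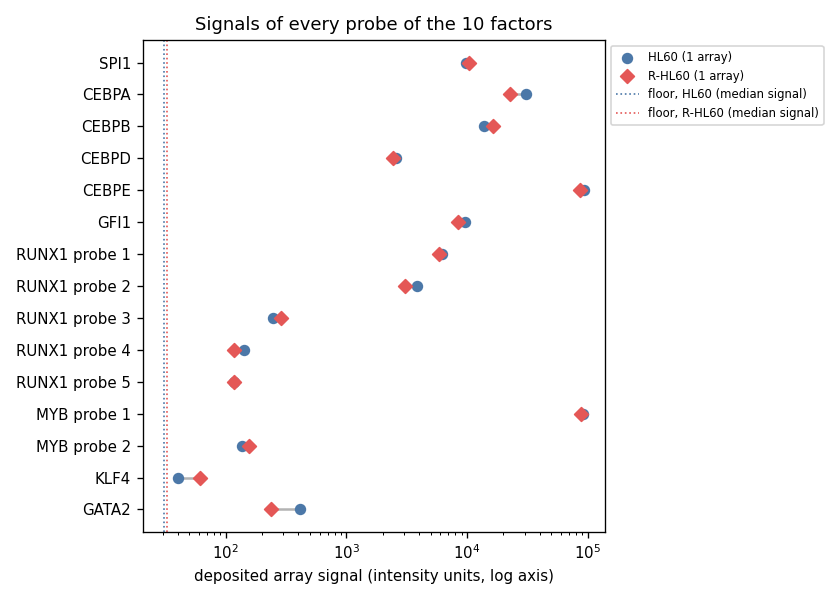
Deposited signal of each of the 15 probes on a log axis, with a circle for the HL60 and a diamond for the R-HL60 array, and dotted lines at each array's floor. The symbols of most probes nearly coincide; GATA2 moves from 415 to 236, and KLF4 sits just above the floor on both arrays.

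GATA2, a zinc finger factor of stem cells and of the mast cell and eosinophil branches, had the largest difference of the 10. Its only probe read 415 in HL60 and 236 in R-HL60, a difference of -0.82, or 1.77-fold lower in the resistant line. The signal was 13.5 times the floor on the HL60 array and 7.18 times on the R-HL60 array, so both readings were well clear of it. The probe-to-probe SD at this brightness was 0.19, and 2.26% of the 1992 genes of like brightness differed by as much in either direction. GATA2 was the only gene of the 10 past 1.5-fold lower, where 1.38% of all genes were. None was past 1.5-fold higher, where 3.53% of all genes were, but KLF4 fell only just short of it at 1.4999-fold. The authors' normalized table gave 413 and 235, a difference of -0.82. In bulk RNA, a lower level in every cell and a smaller share of cells with the transcript cannot be told apart.

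GATA2-AS1, an antisense transcript of the GATA2 locus, had 4 probes above the floor on both arrays. They gave -0.10, -0.27, -0.14 and -0.21 in order of falling signal, so each lay below 0 and none was as low as GATA2. Each was within 2 probe-to-probe SDs of 0, the SDs being 0.14, 0.16, 0.21 and 0.28 for these probes. The brightest of them read 1308 in HL60 and 1226 in R-HL60. RPN1 and RAB7A, the next protein-coding genes on one side of GATA2, were nearly equal at -0.02 and -0.09, and EEFSEC on the other side was at -0.20. DNAJB8, the nearest gene on that side, was below the floor on both arrays.

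RefSeq gives GATA2 a pair of start sites. Because GATA2 and CEBPA had the lowest differences among the 10 and CEBPB the highest among those with bright signals, the 250 bases before their starts are shown here from RefSeq (GRCh38.p14). Capitals mark letters of the binding motifs that were searched for.
GATA2, upstream start, chr3:128493202-128493451, minus strand: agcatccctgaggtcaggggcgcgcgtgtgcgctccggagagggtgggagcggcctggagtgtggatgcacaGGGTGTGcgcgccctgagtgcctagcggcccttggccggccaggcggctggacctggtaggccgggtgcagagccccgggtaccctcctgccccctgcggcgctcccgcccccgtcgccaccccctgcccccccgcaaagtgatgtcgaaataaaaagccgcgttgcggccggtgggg
GATA2, downstream start, chr3:128488531-128488780, minus strand: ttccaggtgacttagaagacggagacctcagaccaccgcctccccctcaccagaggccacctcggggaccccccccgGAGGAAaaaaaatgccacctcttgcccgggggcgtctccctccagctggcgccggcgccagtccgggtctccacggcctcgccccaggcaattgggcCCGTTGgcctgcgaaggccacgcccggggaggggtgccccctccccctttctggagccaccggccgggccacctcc
CEBPA, chr19:33302535-33302784, minus strand: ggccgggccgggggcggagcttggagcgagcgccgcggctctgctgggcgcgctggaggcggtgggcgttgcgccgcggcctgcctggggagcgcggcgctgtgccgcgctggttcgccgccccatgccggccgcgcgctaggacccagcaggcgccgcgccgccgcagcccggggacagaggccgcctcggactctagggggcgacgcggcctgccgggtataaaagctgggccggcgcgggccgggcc
CEBPB, downstream start, chr20:50190580-50190829, plus strand: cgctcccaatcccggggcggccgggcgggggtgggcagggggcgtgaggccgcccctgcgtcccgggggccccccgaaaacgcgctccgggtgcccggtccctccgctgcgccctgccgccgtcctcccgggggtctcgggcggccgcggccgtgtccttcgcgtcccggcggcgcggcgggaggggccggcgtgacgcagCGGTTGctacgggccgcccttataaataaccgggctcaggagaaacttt
The array does not say which start was used, and binding was not measured.

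The motifs were short forms of sites known for these factor families, searched on both strands. They were AGATAA for GATA factors, TTGCNNAA for C/EBP, GAGGAA for PU.1, TGTGGT for RUNX, CAACNG for MYB, AAATCA for GFI1 and GGGTGTG for KLF. RefSeq windows were at hand for 8 of the 10 genes, 12 windows in all, and not for SPI1 and CEBPD. The PU.1 letters stood in 5 of the 12 windows, against 23.6% of 35116 windows of all genes, and the MYB letters in 3, against 27.0%. KLF letters were in 2 windows (6.63% of all windows), and C/EBP (9.05%), RUNX (10.98%) and GFI1 letters (11.6%) in 1 each. The GATA letters were in none of the 12, against 9.17% of all windows. The upstream GATA2 window held the KLF letters from position -178 and the downstream window the PU.1 letters from -173 and the MYB letters from -76, counted back from the start. The CEBPA window held none of the 7 motifs. It was 81.2% G or C, where the median window had 58%. The CEBPB window shown held the MYB letters from position -49, and the other CEBPB window, not shown, held none of the 7 motifs. These matches are descriptions of letters and do not show a binding site.

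CEBPA, which encodes the leucine zipper factor that starts granulocyte development, was lower in R-HL60. Its 1 probe was bright on both arrays, at 30891 in HL60 and 22616 in R-HL60, a difference of -0.46 or 1.37-fold lower. The probe-to-probe SD among such bright probes was 0.10, and 1.36% of the 2505 genes of like brightness differed by as much in either direction. The transcript that leaves the CEBPA promoter in the opposite direction, CEBPA-DT (CEBPA-AS1 in the files), was above 0 on both of its probes. They read 1149 and 1294 (0.16) and 162 and 194 (0.25) in HL60 and R-HL60. The SDs at their brightness were 0.14 and 0.21, so both lay within 2 SDs of 0. CEBPG, the C/EBP family gene next to CEBPA, was nearly equal at 10469 and 11057 (0.07).

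CEBPB, which encodes the C/EBP factor of macrophages and of granulocyte production under stress, was higher in R-HL60. Its probe read 13767 in HL60 and 16342 in R-HL60, a difference of 0.24 or 1.18-fold, with an SD of 0.10 between probes of that brightness. Of the genes of like brightness, 10.3% differed by as much in either direction. The differences of CEBPA and CEBPB thus had opposite signs and lay 0.70 apart on the log2 scale, or 1.62-fold, where the SDs of both brightness levels combine to 0.15. Subtracting any 1 value per array leaves this figure as it is. The neighbouring transcript named lnc-CEBPB-1 read 205 in HL60 and 251 in R-HL60 (0.28), within 2 of the SDs of its brightness (0.19). CEBPB-AS1 was below the floor on both arrays.

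The remaining C/EBP genes of the 10 stayed close to equal. CEBPD, a C/EBP factor induced by inflammatory signals, read 2569 in HL60 and 2445 in R-HL60 (-0.08). CEBPE, required for the late granule proteins of neutrophils and eosinophils, read 93230.1 and 85438 (-0.13). A difference as large as that of CEBPE was seen for 29.3% of the genes of its brightness, and one as large as that of CEBPD for 63.2%. The CEBPE signal was thus high in both lines, 3039 and 2601 times the floor.

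**Figure D2:**
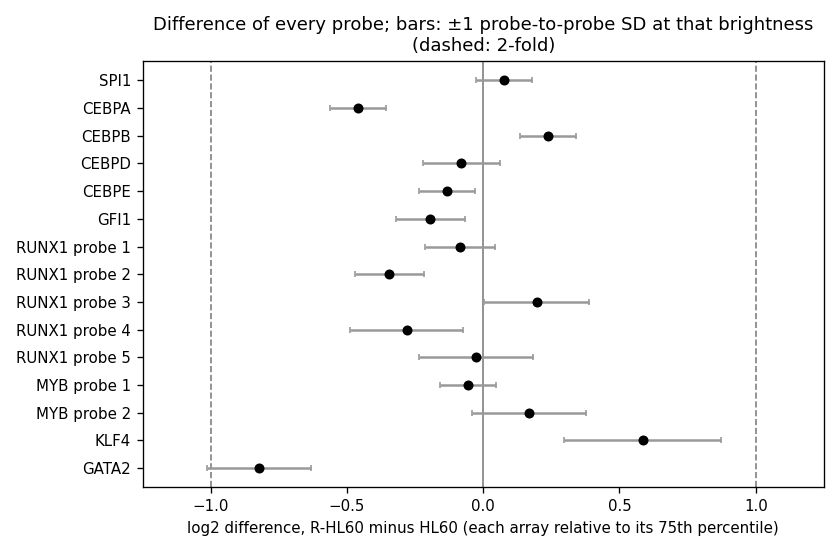
Log2 difference (R-HL60 minus HL60) of each of the 15 probes, with bars of ±1 probe-to-probe SD at the brightness of that probe, which is not an error between cultures. Only the CEBPA, CEBPB, KLF4, GATA2 and RUNX1 probe 2 points lie more than 2 such SDs from 0, and none reaches the dashed 2-fold lines.

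SPI1, the gene of the ETS factor PU.1, read 9865 in HL60 and 10471 in R-HL60, a difference of 0.08 with a probe-to-probe SD of 0.10. A difference of this size or larger was seen for 51.3% of genes of like brightness. SPI1 was at -0.01 when each array was centred on its median, so its direction was not settled. GFI1, a zinc finger repressor that holds back monocyte genes in granulocyte precursors, read 9527 and 8374 (-0.19, SD 0.13), and 22.4% of like genes differed by as much. The transcript named lnc-SPI1-1 was above the floor on the R-HL60 array only, at 18.8 and 36.7.

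RUNX1, the DNA-binding subunit of core binding factor, was the gene with most probes, 5, and they did not point the same way. The brightest read 6146 in HL60 and 5829 in R-HL60 (-0.09), and the next 3859 and 3056 (-0.35). The third read 248 and 286 (0.20), the fourth 141 and 117 (-0.28) and the fifth 118 and 117 (-0.03). The second differed from 0 by 2.71 of the SDs of its brightness and the other 4 by less than 2. The mean over the 5 was -0.11 with an SD of 0.22 between them. The files do not say which RUNX1 transcripts each probe binds. RUNX1-IT1, a transcript from within a RUNX1 intron, was at 0.26, from 348 to 420.1. CBFB, the partner subunit of RUNX1, was at -0.20, from 9483 to 8329. The SDs at their brightness were 0.16 and 0.13, so both lay within 2 SDs of 0.

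MYB, which keeps progenitors dividing and is switched off as they mature, had a bright and a dim probe that gave opposite signs. The bright probe read 90833 in HL60 and 87854 in R-HL60 (-0.06) and the dim one 138 and 156 (0.17). Both values were within 1 probe-to-probe SD of 0, the SDs being 0.10 and 0.21. The mean of both probes was 0.06 and the bright probe was at 0.00 after loess correction, so MYB had no settled direction.

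KLF4, a zinc finger factor that favours monocytes, had the largest upward difference but the weakest signal. Its probe read 40.5 in HL60 and 61.1 in R-HL60, which is 1.32 and 1.86 times the floor. The difference was 0.58, with an SD of 0.29 at this brightness, and 10.8% of the 2147 genes of like brightness differed by as much in either direction. Adding 50 units to every signal, which shrinks differences between dim probes, brought it to 0.29. With the floor at the 60th percentile it was not read at all. The transcripts lnc-KLF4-2 and lnc-KLF4-4 were below the floor on both arrays.

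**Figure D3:**
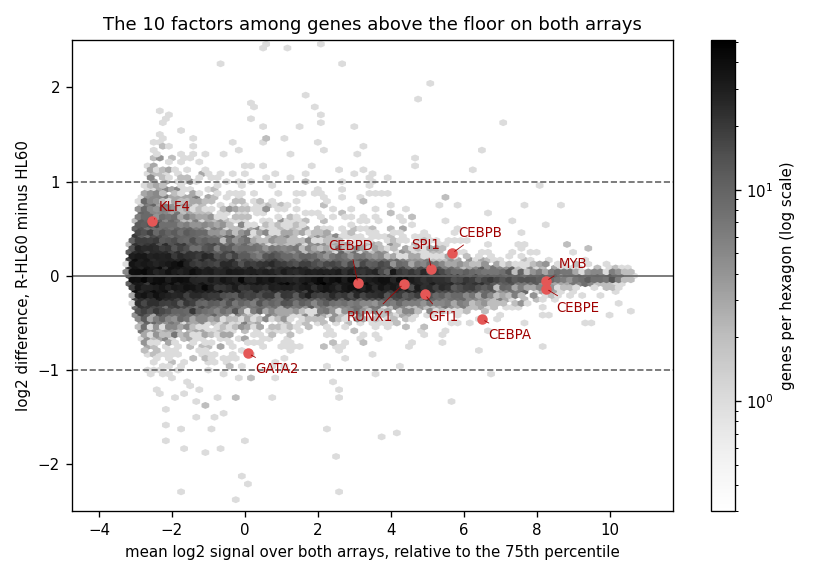
Log2 difference against mean log2 signal for the 21839 genes above the floor on both arrays (grey, genes per hexagon) and the 10 factors (red). The spread narrows to the right, so CEBPA stands at the edge of the bright genes with a smaller difference than that of KLF4; 18 genes lie beyond the axis limits of ±2.5.

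Genes of the same families were described by a list of 31, of which 24 could be read. Of these 24, 1 was at least 2-fold higher (0.786% of all genes), none was 2-fold lower (0.297% of all genes) and the median was -0.11. The exception was DDIT3, which encodes a stress-induced member of the C/EBP family, with 716 in HL60 and 1618 in R-HL60 (2.25-fold higher). RUNX2 and RUNX3 were at -0.10 and -0.12 on their brighter probes, and CEBPZ was at -0.15. MYBL2, the MYB relative of dividing cells, was at 0.02, and MYBL1 was at -0.49 from 157 to 112. Among the KLF genes, KLF6 went from 1893 to 2712 (0.51) and KLF2 from 171 to 221 (0.36), while KLF10 was at -0.26. SPIB, the ETS relative of PU.1, was at 0.83 on dim signals of 42.4 and 75.7. GFI1B, the erythroid relative of GFI1, was at -0.17. GATA1 was below the floor on both arrays, as were GATA3, GATA4, ERG, SPIC, KLF11 and RUNX1T1.

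Partners and regulators of the factors formed a further list. Of 25 listed, all could be read on 1 array or both. None was known to differ by 2-fold (1.08% of all genes did), and the median was -0.11. The lowest was ZFPM1, the FOG1 cofactor of GATA factors, which went from 318 to 189.5, a difference of -0.75. TRIB1 and TRIB2, pseudokinases that direct C/EBP-alpha to degradation, were at -0.30 (63064 and 51571) and -0.38 (101 and 78.1). The demethylase KDM1A, through which GFI1 represses, was at 0.03. ZFPM2 was above the floor on the R-HL60 array only, with a bound of 0.82. Of 28 other factors of blood cells, 22 were above the floor, with a median of -0.21. None of the 21 measured on both arrays passed 2-fold (1.08% of all genes did). TAL1, above the floor on the HL60 array only, had a bound of -0.22. EGR1, an immediate early factor, had the lowest value measured on both arrays (-0.67, from 3236 to 2051), followed by IRF8, a factor of monocytes and dendritic cells (-0.61, from 72.1 to 47.6).

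Among genes known as targets of these factors, a few differed by more than 2-fold. The lists, here and below, were chosen with earlier results of these data known, so their counts test nothing. The early granulocyte list had 10 members, of which 9 were found by name on the array, all of them readable. Of these 9, 1 was 2-fold lower (0.297% of all genes) and none 2-fold higher (median -0.15). ELANE, neutrophil elastase, went from 699.7 to 153 (-2.20). The related protease gene PRTN3 went from 32955 to 18985 (-0.80), while MPO was at -0.12 and the G-CSF receptor gene CSF3R at 0.05. Of 22 late granulocyte genes 21 were found by name on the array and 14 were above the floor, with a median of 0.45. Of these 14, 3 were 2-fold higher (0.786% of all genes), none was lower by that size and 13 lay above 0 (43.3% of all genes). CYBB, the oxidase subunit whose gene PU.1 activates, went from 86.0 to 415 (2.26), MMP9 from 657 to 2159 (1.71) and S100A9 from 685 to 1849 (1.42). Several genes of specific granules that need C/EBP-epsilon, among them LTF, LCN2 and MMP8, were below the floor in both lines, and CAMP was at -0.53 (248 and 173).

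The other branches were covered by a monocyte list and by a list of eosinophil, basophil and mast cell genes. Of 13 monocyte genes 12 were found by name on the array and 11 were above the floor, with a median of 0.08. None of the 10 measured on both arrays passed 2-fold (1.08% of all genes did). MRC1, above the floor on the R-HL60 array only (20.6 and 47.8), had a bound of 0.63 that leaves a larger difference possible. VCAN was at 0.66 on signals of 59.5 and 94.8, and CSF1R, a target of PU.1 and RUNX1, was at -0.35 (224 and 176). Of 14 eosinophil, basophil and mast cell genes 12 were found by name on the array and 7 were above the floor. Of these 7, 2 were 2-fold lower (0.297% of all genes). They were CLC (-4.95, from 1852 to 60.1) and PRG2 (-1.66, from 9632 to 3063). Of the 7, 6 lay below 0 (55.8% of all genes), and the median was -0.27. RNASE2 was at -0.03 and CPA3 at -0.29, and TPSAB1, above the floor on the HL60 array only, had a bound of -0.07. The mast cell receptor gene KIT was below the floor on both arrays. Whether the factors bear on these targets was not tested.

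**Figure D4:**
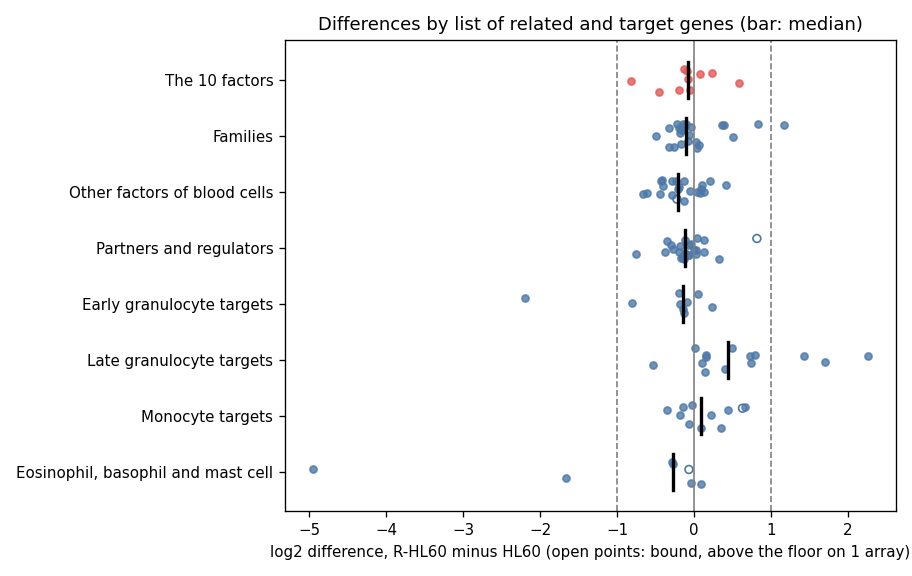
Log2 difference (R-HL60 minus HL60) of the 10 factors and of the listed genes that could be read, 1 point per gene, with a bar at each median and open points for bounds. Most factors and related factors lie near 0, while the late granulocyte targets lie mostly to the right and CLC, PRG2 and ELANE far to the left.

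Across 9 other ways to scale, filter or summarise the signals, GATA2 ran from -0.91 to -0.71, CEBPA from -0.55 to -0.39 and CEBPB from 0.15 to 0.31. GFI1 ran from -0.28 to -0.13 and CEBPE from -0.22 to -0.08. SPI1 and MYB changed sign in some settings. The authors' normalized table and quantile normalization, both among the 9, gave nearly the same values. No setting took any of the 10 past 2-fold, though a changed floor could not move the value of a factor that was still read.

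**Figure D5:**
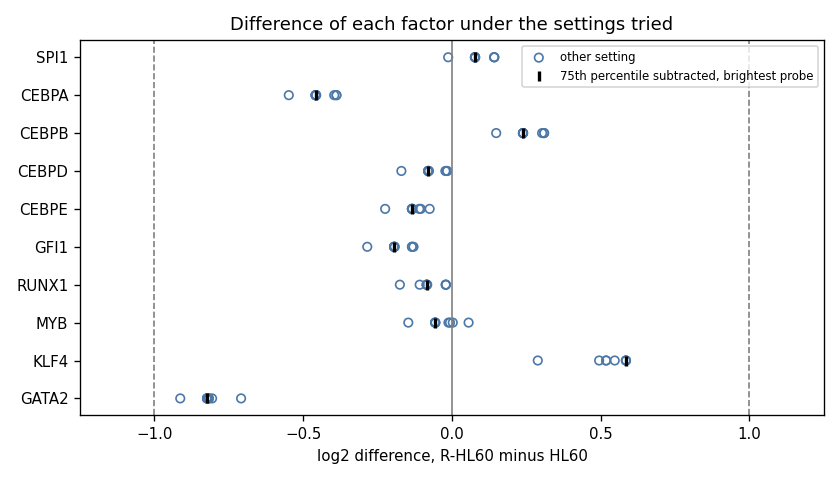
Log2 difference (R-HL60 minus HL60) of each factor with the 75th percentile subtracted and the brightest probe (bar) and under the other settings (circles). Only the MYB and SPI1 circles fall on both sides of 0, and none reaches the dashed 2-fold lines.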

How the data were processed

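Total RNA of both lines was labelled with Cy3 and read on 1 one-colour array per line, per the labels' protocols; Agilent Feature Extraction 10.7.3.1 is named in the submitters' processing notes. The deposited files give 1 linear intensity per probe for 58201 probes and a gene name. Which scanner signal this is, and its background treatment, was not stated. The authors' normalized table of intensities was used as an alternative, its method likewise unstated. Ranked by size, its intensities departed by no more than 1.06% from the averaged ranked signals of the arrays. Quantile normalization, which gives every array such averaged values, was another alternative. GATA2 was at -0.82 and CEBPA at -0.39 under either, so these alternatives were not independent.

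Signals were taken to log2 and each array's 75th percentile was subtracted. The floor was the array's median, and the brightest probe by its mean stood for a gene. A gene above the floor on 1 array has a bound, computed against the floor of the other. Of 43317 names, 1567 were updated through the GRCh38.p14 gene table and 20612 were not matched. With 1 array per line no test was run. The probe-to-probe SD was pooled over 4724 genes and in 10 bins of brightness. The named genes were all 10 factors, 22 genes fixed by name, and from each list those past 2-fold or the one with the largest difference; a few other list members were named after their values were seen. The factors and lists were chosen with earlier results of these data known. Steps were tested on simulated data. Python 3.11.15, numpy 2.4.6, pandas 2.3.3, statsmodels 0.14.6 and matplotlib 3.10.9 were used.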

Additional observations from a re-analysis of the deposited data

How the results depend on the processing

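The number of arrays limits every value, and dim signals such as that of KLF4 limit single genes. No paired analysis was possible because each line has 1 array. None of the 10 factors was at least 2-fold higher or lower in any of the 11 alternatives. With the threshold moved to 1.5-fold, 1 of them, GATA2, was lower by that size, where 1.38% of all genes were. The changed floors and the 3-fold threshold could not have added a member. Of the values of single factors under alternatives, 88 stayed within the probe-to-probe SD of 0.19 of the value given, and 1, that of KLF4, moved to 0.29 with the offset of 50 units. Part of the 88 was fixed in advance. A changed floor cannot move the value of a factor that is still read, and the mean over all probes can move only RUNX1 and MYB. The authors' table and quantile normalization were counted as separate alternatives, though their values nearly coincided. Over all genes the counts of higher and lower were 66 and 40 with the offset, 346 and 109 with the floor at the 40th percentile, 2536 and 1300 without a floor, 831 and 324 at 1.5-fold, 45 and 29 at 3-fold. With the floor at the 60th percentile 102 were higher. Of the listed genes, 4 were higher and 3 lower; these counts were 9 and 6 without a floor, 11 and 7 at 1.5-fold, and 2 were higher at 3-fold. The cause of these shifts was the changed floor or threshold itself, except for the offset, which shrinks dim differences by construction.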

Other observations

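The 2 protein-coding genes next to each factor on either side, taken from the gene order of RefSeq, gave 40 neighbours. Of these 37 were on the array and 28 could be read. None of the 26 measured on both arrays was 2-fold higher or lower, where 1.08% of all genes were. The median of the 28 was -0.11, with measured values from -0.24 for SETD4 beside RUNX1 to 0.58 for SLC7A8 beside CEBPE. SLC7A8, an amino acid transporter gene, read 94.6 in HL60 and 143 in R-HL60, while CEBPE itself was at -0.13. Beside KLF4, RAD23B was at -0.11, and beside CEBPB, PTPN1 was at -0.13.

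Transcripts whose names carry that of a factor had 21 probes for 16 names, and 8 probes of 4 names (GATA2-AS1, CEBPA-DT, lnc-CEBPB-1 and RUNX1-IT1) were above the floor on both arrays. The lnc-MYB-1 transcript was above the floor on the HL60 array only, at 37.3 and 32.5.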
